A study of Gallus gallus with 12 samples.

Results

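Immune cell and interferon genes were examined in the hypothalamus of heat-stressed broilers, as a set of 32 listed chicken genes that mark leukocytes or belong to interferon and pattern-receptor signalling. A gene entered when an array probe carried an accession of that gene, and it was read from its brightest probe. Of the 32 genes, 29 had such a probe, among 4814 genes named on the array. CSF1R, TLR5 and CCR7 had no named probe and were not analysed here. CD80 was matched through an accession that the gene table lists under CD88 with CD80 as a synonym.

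The 12 birds were female Anak_40 broilers 56 d of age, full-sibs or half-sibs, with 4 in each group. Control birds (CL) stayed at 25°C, heat-stressed birds (HS) were kept at 34°C for 24 h, and temperature-recovery birds (TR) had the same 24 h at 34°C and then 24 h at 25°C. The hypothalamus RNA of each bird was hybridized to a 1-colour Agilent array, written below as the group and its replicate number (HS3). Other label fields name male birds, spleen tissue and, for HS and TR, infection with Marek's disease virus, in conflict with the titles and the treatment protocol.

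The labelled tissue was checked against marker genes. Of 14 neuron and hypothalamus genes with a probe, 8 were above background on all 12 arrays, among them the neuronal gene STMN2 and AVP, the vasotocin precursor. Their levels differed widely between arrays. The log2 signal of AVP ran from 7.68 on CL2 to 18.71 on HS4, and that of STMN2 from 10.28 on CL2 to 15.7 on HS4. CRH was above background on 0 arrays, GHRH on 1 and GAL on 6. Of 13 spleen and lymphoid organ genes 3 had a probe, and NKX2-5 and NKX2-3 were above background on 0 arrays and TLX1 on 3. The log2 signal of TLX1 was 7.39 on HS1, and on the other arrays it ran from 3.34 on HS3 to 4.62 on HS2. Of 30 lymphocyte genes with a probe, 16 were above background on all 12 arrays, CD72 of B cells among them, and 8 on none, the B cell factor PAX5 among them. HINTW, which lies on the W chromosome that hens alone carry, had a log2 signal from 17.47 to 17.93 on the 12 arrays. The arrays held from 33505 spots above background on HS4, with 35060 on TR3 as the next lowest, to 36852 on TR1. The median signal was 14.46 to 15.84 times the local background in HS, 12.67 to 14.92 times in TR and 10.82 to 12.67 times in CL. HS and CL did not overlap in it. The part of these differences in the gene values was not tested. The 3 groups were on 3 different slides, and slide and group cannot be told apart. CL arrays were scanned on a different day from HS and TR arrays. The number of arrays limits the precision.

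Brain tissue holds its own resident macrophages, the microglia, together with macrophages of its borders and the blood cells left in its vessels. Microglia depend on the transcription factors SPI1 (PU.1) and IRF8 in mammals and carry general leukocyte genes such as PTPRC, the CD45 phosphatase. T cells are marked by the CD3 chains and by CD4 or CD8A, and B cells by CD79B. Interferons act through receptors and JAK and STAT proteins to raise antiviral genes such as MX1, while TLR3 and TLR7 sense viral RNA.

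Most of the genes had a measurable signal, as did most probes of the array. Of the 29 genes with a probe, 20 were above background on all 12 arrays, 7 on some arrays and 2 on none. The 20 included the leukocyte genes PTPRC, CD44 and IL2RG, the kinases BTK, LYN and SYK, the factors SPI1, IRF8, IRF1 and IKZF1, and the antigen presentation genes CD74, B2M and CD80. They also included the T cell genes CD3E, CD8A and CD28, the chemokine receptor CXCR4, the receptors TLR3 and TLR7, and MX1. Of the 43603 probes besides controls, 32229 passed the background mark on each of the 12 arrays, and 4596 never passed it. The probe counts take every probe and the gene counts only the brightest of each gene, so they are not directly comparable.

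**Figure D1:**
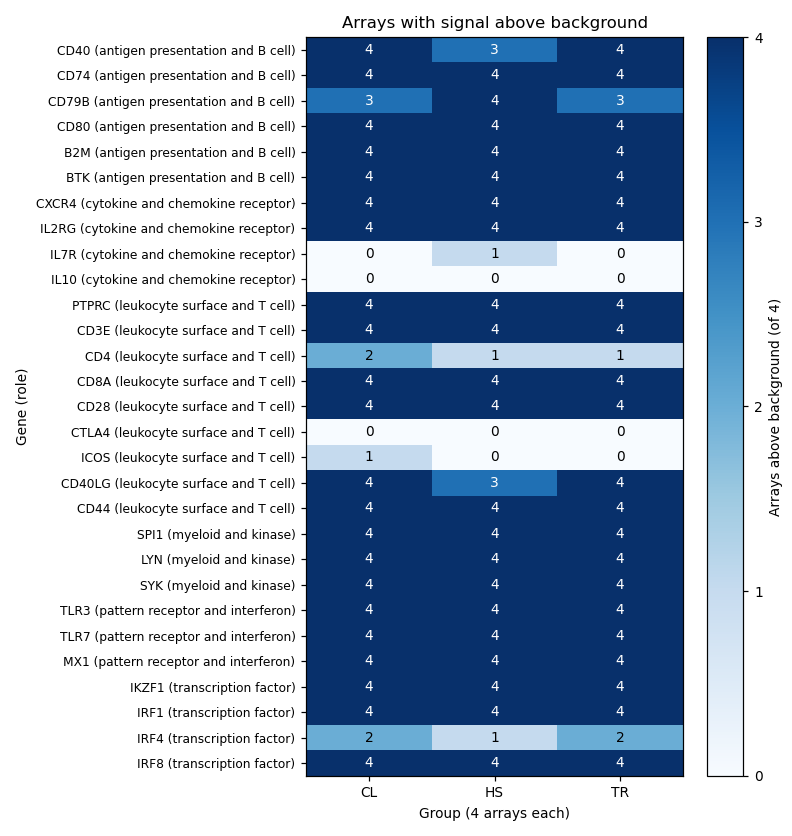
Number of arrays, of 4 in each group, on which the brightest probe of each of 29 genes was above background. Rows are genes with their role in parentheses, columns are CL, HS and TR, and darker cells hold higher numbers. The T cell receptors CTLA4 and ICOS, the cytokine IL10 and the cytokine receptor IL7R were above background on at most 1 array, while 20 genes were above background on all 12.

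The genes seldom above background were mostly lymphocyte genes. CTLA4, an inhibitory receptor of T cells, and IL10, an anti-inflammatory cytokine, were above background on 0 of 12 arrays. ICOS, a costimulatory receptor, passed on CL4 alone, and IL7R, a receptor for lymphocyte survival, on HS1 alone. ICOS had 4.63 on CL4 but its highest log2 signal, 5.16, on HS4, where it was not marked. CD4, the co-receptor of helper T cells, was above background on HS1, TR3, CL1 and CL4, and IRF4, a factor of lymphocytes and plasma cells, on 5 arrays (1 HS, 2 TR and 2 CL). These 6 genes were not above background on all arrays of any group and were left out of the tests. CD40, the receptor of the helper signal on antigen-presenting cells, and its ligand gene CD40LG were above background on 11 arrays each, both missing HS4. On HS4 the log2 signal of CD40 was 5.38, its lowest, while CD40LG had 6.15, near its highest of 6.19 on TR4. The lowest marked spot of HS4 had a log2 signal of 5.711 before normalization, against at most 4.951 on the other arrays. A missing mark on HS4 is thus not in itself a lower signal. CD79B, a chain of the B cell receptor, was above background on 10 arrays, with TR1 and CL2 missing. A signal under background at these settings gives no level.

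The remaining 23 genes were tested in each pair of groups with limma, in a fit of the 12 arrays to 34918 probes. Differential expression (DE) required p under 0.05, an FDR under 0.15 by the method of Benjamini and Hochberg, and more than a 1.5-fold change. None of the 23 was DE in HS vs. CL, where 3.58% of all tested probes were. None was DE in HS vs. TR, against 1.84% of all probes, and none in TR vs. CL, against 0.0945%. At an unadjusted p under 0.05, limma gave 5, 4 and 3 of the 23 genes, beside 20.7%, 16.4% and 7.79% of all probes. The methods' t-test called 0 genes in each comparison, with 3, 1 and 3 at an unadjusted p under 0.05. A fit of HS and TR alone, which shared a scan day, also called 0 genes. Of the 41 tested probes of these genes, counting all probes of a gene, 0 were DE in any comparison.

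Most of these genes had a lower mean signal in HS than in CL. The log2 change of HS vs. CL was below 0 for 16 of 23 genes, where 56.7% of all probes were below 0, with a median of -0.23 against -0.04 over all probes. In HS vs. TR it was below 0 for 18 of 23 genes, against 57.5% of all probes, with a median of -0.18 against -0.04. In TR vs. CL it was below 0 for 14 of 23 genes, against 51.4%, with medians of -0.03 and -0.01. With array weights that count was turned round, to 6 genes below 0 and a median of 0.04. HS vs. CL and HS vs. TR share the HS arrays, and their values are given side by side only. In whole tissue, fewer cells of a type and less RNA per cell cannot be told apart.

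**Figure D2:**
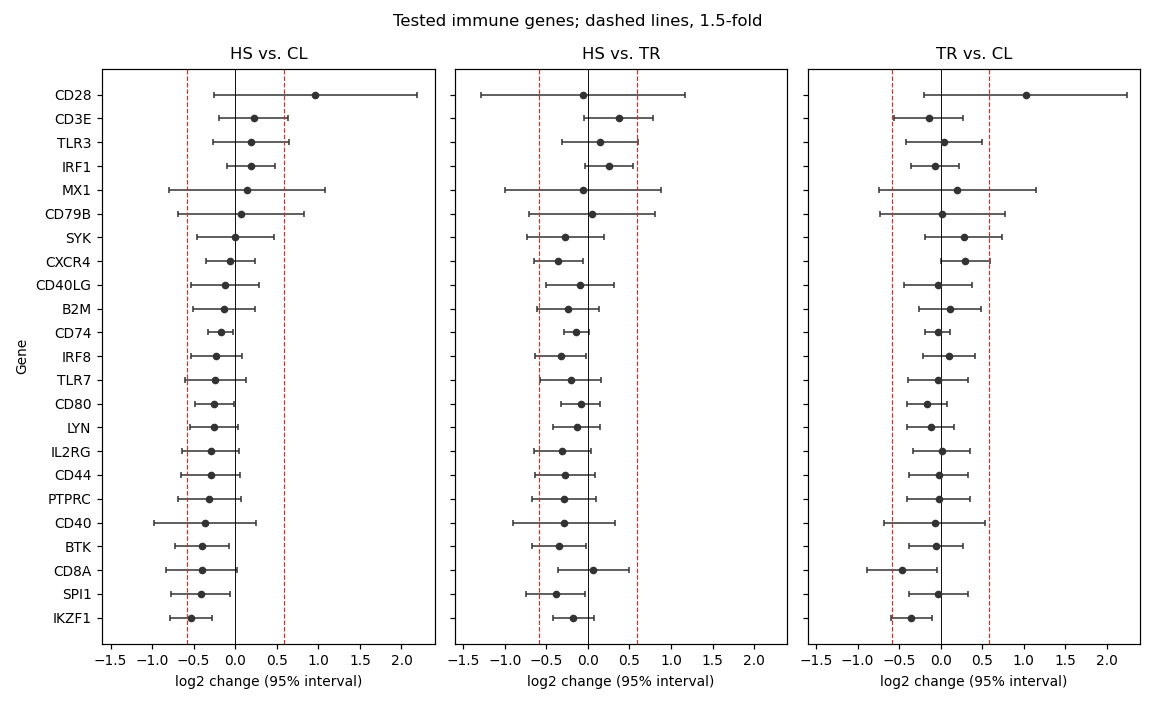
Log2 change of 23 tested genes in the 3 comparisons of groups, with 95% intervals from limma. Points are changes of normalized log2 signal, dashed lines mark a fold change of 1.5, and genes are ordered by HS vs. CL. IKZF1 lies lowest in HS vs. CL at -0.53 and CD28 highest at 0.96, with the widest interval.

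The 95% interval of the log2 change lay within a 1.5-fold change in both directions for 9 of 23 genes in HS vs. CL, for 8 when HS was set against TR and for 15 when TR was set against CL. For the other genes a change of 1.5-fold was inside the interval. The standard error of the log2 change was between 0.07 for CD74 and 0.56 for CD28.

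The lower median level in HS lay mostly on HS3 and HS4, though not for every gene. Over the 20 genes above background on all arrays, the median deviation from each gene's mean was -0.26 on HS3 and -0.29 on HS4, but 0.12 on HS1 and -0.06 on HS2. It lay between -0.08 on TR2 and 0.28 on TR3 in TR, and between -0.17 on CL3 and 0.26 on CL2 in CL. The lowest of the 12 arrays was HS3 or HS4 for 13 of the 20 genes. The share over all probes was not counted. HS3 was lowest for 7 and HS4 for 7 of 29 other microglia and macrophage genes. For 24 other interferon pathway genes these counts were 0 and 5, and for 16 other lymphocyte genes 3 and 2. Without HS3 and HS4, a fit chosen after the data were seen, the median log2 change of the 23 genes was -0.02 in HS vs. CL and -0.02 for HS vs. TR, with 14 and 12 genes below 0. These arrays had the lowest medians of these same genes, so a smaller change was set in advance and is no separate evidence. The same holds below for single genes that were low on HS3 and HS4. In that fit CD74 was still lower in HS vs. CL, at -0.14, and the change of IKZF1, given below, stayed close to its main value.

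Neuronal genes were high on these arrays. The neuron and hypothalamus list held 24 genes, of which 14 had a probe and 11 were tested. All 11 were higher in HS than in CL, with a median log2 change of 1.99, and 6 were DE (AVP, ADCYAP1, NEFM, NEFL, STMN2 and GNRH1). In HS vs. TR 11 of 11 were higher, with a median of 2.33 and 3 DE. NEFM, a neurofilament gene, had log2 signals of 9.06, 9.87, 11.95 and 12.47 on HS1 to HS4, between 6.08 and 8.31 on the TR arrays, and 9.48, 6.42, 7.04 and 8 on CL1 to CL4. The list's median deviation was 0.21, 0.55, 2.26 and 3.54 on HS1 to HS4, between -1.42 and -0.31 in TR, and between -1.61 and 0.72 in CL. HS1 and HS2 thus lay below CL1, which had 0.72. The immune genes had median deviations of 0.12, -0.06, -0.26 and -0.29 on HS1 to HS4. On CL1 to CL4 the neuron list had 0.72, -1.61, -0.89 and -0.76, beside 0.16, 0.26, -0.17 and 0.04 for the immune genes. On TR1 to TR4 the neuron list had -1.22, -0.31, -0.77 and -1.42, beside -0.06, -0.08, 0.28 and 0.13 for the immune genes. The part of the neuron and hypothalamus genes in the lower immune signals was not tested.

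**Figure D3:**
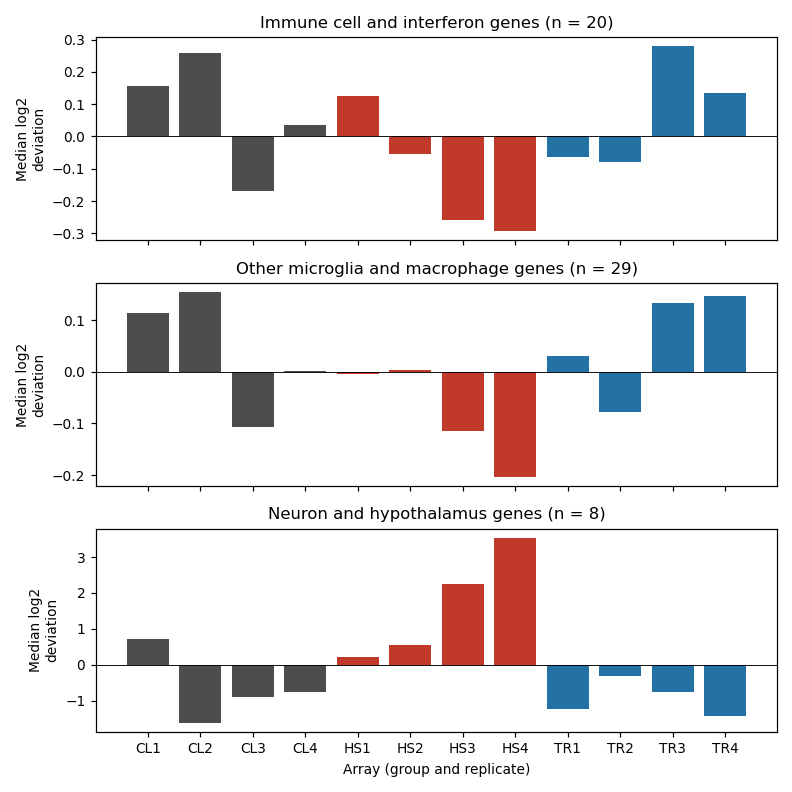
Median deviation of log2 signal from each gene's mean, by array, for 20 immune cell and interferon genes, 29 other microglia and macrophage genes and 8 neuron and hypothalamus genes. Bars are arrays grouped as CL, HS and TR, over genes above background on all 12 arrays, and each panel has its own scale. HS3 and HS4 are lowest for the immune genes (-0.26 and -0.29) and highest for the neuronal genes (2.26 and 3.54).

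IKZF1, the lymphoid transcription factor Ikaros, had the lowest adjusted p of the 23 genes. Its log2 signals were 8.16, 8.03, 7.89 and 8.18 on HS1 to HS4, 8.24, 7.98, 8.32 and 8.43 on TR1 to TR4, and 8.50, 8.62, 8.49 and 8.77 on CL1 to CL4. All HS and all TR arrays lay below the lowest CL array, and HS and TR overlapped. The log2 change in HS vs. CL was -0.53 ± 0.11 (SE, n = 4 per group) with an adjusted p of 0.047 in limma, and it was not DE because the fold change of 1.44 was under the limit. At the brightest probes, IKZF1 was the 1 gene of 23 with an FDR under 0.15 at any fold in HS vs. CL. Of all probes, 11.1% were under that limit. At the brightest probes there were 0 such genes in HS vs. TR, against 4.59% of probes, and 0 in TR vs. CL, against 0.152%. The second probe of IL2RG, given below, also had an FDR under 0.15 when HS was set against either group. The log2 change of IKZF1 in TR vs. CL was -0.35 ± 0.11 with an adjusted p of 0.51. Without HS3 and HS4 the HS vs. CL change was -0.50. IKZF1 has 1 probe on the array, and CL arrays differed from the others in slide and scan day.

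Among antigen presentation genes, CD74, the invariant chain of class II molecules, was the other gene whose arrays did not overlap between HS and CL. Its log2 signals were 18.14, 18.16, 18.07 and 18.07 on HS1 to HS4, 18.29, 18.18, 18.31 and 18.24 on TR1 to TR4, and 18.22, 18.24, 18.32 and 18.38 on CL1 to CL4. All 4 HS arrays were below all TR and CL arrays, over a narrow span of 0.31. HS differed from CL by -0.18 ± 0.07 on the log2 scale, with an adjusted p of 0.18 in limma. It was -0.14 ± 0.07 in HS vs. TR, with an adjusted p of 0.33. With arrays scaled to the 75th percentile the HS vs. CL change was -0.43, with an adjusted p of 0.031, still under 1.5-fold. Over 26 alternatives the adjusted p of HS vs. CL ran from 0.031 to 0.61.

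Arrays that did not overlap were thus seen at 2 of 23 genes in HS vs. CL, both lower, where 11.9% of all probes did not overlap (4.54% higher and 7.38% lower). In HS vs. TR 1 of 23 genes did not overlap (CD74, lower), against 11.3% of all probes (4.67% higher and 6.66% lower). In TR vs. CL 2 of 23 did not overlap, CD28 higher and IKZF1 lower, against 5.3% (2.38% higher and 2.92% lower).

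B2M, the light chain of class I molecules, had log2 signals of 12.91, 13.29, 12.64 and 12.69 on HS1 to HS4, 12.96, 12.84, 13.29 and 13.40 on TR1 to TR4, and 13.18, 13.16, 12.80 and 12.91 on CL1 to CL4. The 3 groups overlapped. The HS vs. CL change was -0.13 ± 0.17 with an adjusted p of 0.69, and the 3 probes of B2M differed in sign, with changes of -0.13, -0.02 and 0.27. CD80, a ligand of CD28 on antigen-presenting cells, changed by -0.25 ± 0.11 in HS vs. CL with an adjusted p of 0.22.

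Of the myeloid and kinase genes SPI1, LYN and SYK, 2 of 3 had a lower mean in HS than in CL and 3 of 3 a lower mean than in TR, with 0 DE. SPI1, the factor PU.1 of macrophages and microglia, had log2 signals of 9.13, 9.04, 8.75 and 8.60 on HS1 to HS4, 9.28, 8.93, 9.47 and 9.39 on TR1 to TR4, and 9.44, 9.42, 8.94 and 9.38 on CL1 to CL4. The HS arrays overlapped the others through TR2 and CL3. The log2 change was -0.42 ± 0.16 in HS vs. CL and -0.39 ± 0.16 for HS vs. TR, with adjusted p of 0.18 and 0.27. BTK, a kinase of B cells and myeloid cells, had log2 signals of 10, 9.71, 9.32 and 9.47 on HS1 to HS4, 9.76, 9.90, 10.17 and 10.06 on TR1 to TR4, and 10.01, 10.20, 9.88 and 10.02 on CL1 to CL4. HS1 was inside the range of the other groups and the other HS arrays were below it. The BTK change was -0.40 ± 0.15 in HS vs. CL and -0.35 ± 0.15 for HS vs. TR, with adjusted p of 0.16 and 0.27. A second BTK probe, above background on all 12 arrays, changed less, by -0.20 and -0.22, with adjusted p of 0.62 and 0.63 in limma. Without HS3 and HS4 the HS vs. CL changes were -0.21 for SPI1 and -0.17 for BTK.

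IRF8, a factor of macrophages and microglia, had log2 signals of 10.30, 10, 9.92 and 9.57 on HS1 to HS4, 10.16, 10.12, 10.49 and 10.33 on TR1 to TR4, and 10.21, 10.14, 10.10 and 10.26 on CL1 to CL4. HS1 lay within the TR range and the other HS arrays below it, with a change of -0.33 ± 0.14 in HS vs. TR and an adjusted p of 0.28. It was -0.12 without HS3 and HS4. SYK, a kinase downstream of immune receptors, had log2 signals of 7.31, 6.98, 6.68 and 7.06 on HS1 to HS4, 7.39, 7.01, 7.27 and 7.45 on TR1 to TR4, and 7.58, 6.71, 6.58 and 7.14 on CL1 to CL4. Its groups overlapped, and the largest change was 0.28 ± 0.21 in TR vs. CL with an adjusted p of 0.78. It was 0.47 without CL1, 0.18 without CL2 and 0.13 without CL3. A second SYK probe gave -0.63 in HS vs. TR with an adjusted p of 0.17, against -0.27 at the brightest probe. LYN, a kinase of the Src family, changed by -0.26 ± 0.13 in HS vs. CL with an adjusted p of 0.29.

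**Figure D4:**
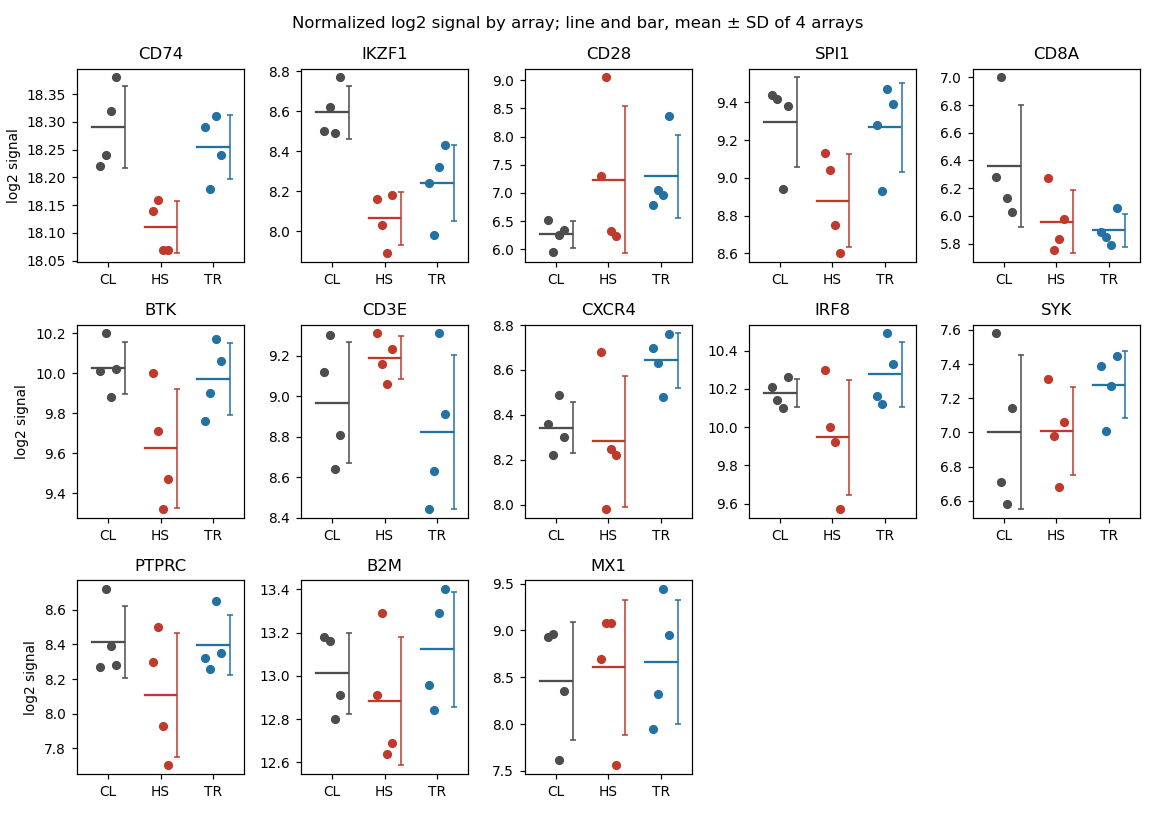
Normalized log2 signal of 13 genes on each array, in the groups CL, HS and TR. Points are arrays, horizontal lines are group means and vertical bars are SD of 4 arrays, and each panel has its own scale. HS arrays lie below all CL arrays for CD74 and IKZF1, and HS2 and TR4 stand high for CD28 at 9.05 and 8.37.

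General leukocyte genes followed the same arrays. PTPRC had log2 signals of 8.30, 8.50, 7.93 and 7.70 on HS1 to HS4, 8.32, 8.26, 8.65 and 8.35 on TR1 to TR4, and 8.27, 8.72, 8.39 and 8.28 on CL1 to CL4. HS1 and HS2 lay within the range of the other groups and HS3 and HS4 below it. The change was -0.31 ± 0.17 in HS vs. CL with an adjusted p of 0.33, and its second probe also gave -0.31. CD44, an adhesion receptor, changed by -0.30 ± 0.16 with an adjusted p of 0.32. IL2RG, the shared chain of several cytokine receptors, changed by -0.29 ± 0.16 with an adjusted p of 0.31. Its second probe, above background on all 12 arrays, changed by -0.55 with an adjusted p of 0.075 in limma, again under 1.5-fold. Against TR, the brightest IL2RG probe changed by -0.31 and the second by -0.48 in HS. The adjusted p in limma were 0.35 and 0.147, with both changes under 1.5-fold.

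T cell genes did not move together. CD28, the costimulatory receptor, had log2 signals of 7.31, 9.05, 6.33 and 6.24 on HS1 to HS4, 6.78, 7.06, 6.96 and 8.37 on TR1 to TR4, and 6.52, 5.95, 6.25 and 6.35 on CL1 to CL4. HS2 and TR4 were the high arrays, and all TR arrays were above all CL arrays. The change was 0.96 ± 0.56 in HS vs. CL, with an adjusted p of 0.35, and 0.36 without HS2 or 1.91 without HS3 and HS4. In TR vs. CL it was 1.02 ± 0.56, with an adjusted p of 0.69, and 0.67 without TR4. A second CD28 probe was above background on 2 arrays and was not tested.

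CD8A, the co-receptor of cytotoxic T cells, had log2 signals of 6.27, 5.75, 5.83 and 5.98 on HS1 to HS4, 5.88, 5.85, 5.79 and 6.06 on TR1 to TR4, and 6.28, 7.00, 6.13 and 6.03 on CL1 to CL4. CL2 was the high array, and each pair of groups overlapped. The change was -0.40 ± 0.19 in HS vs. CL and -0.47 ± 0.19 for TR vs. CL, with adjusted p of 0.27 and 0.61. Without CL2 these changes were -0.19 and -0.25. The other probes of CD8A were above background on 5 and 0 arrays and were not tested. CD3E, a chain of the T cell receptor complex, had log2 signals of 9.31, 9.16, 9.06 and 9.23 on HS1 to HS4, 8.44, 8.63, 9.31 and 8.91 on TR1 to TR4, and 9.12, 9.30, 8.64 and 8.81 on CL1 to CL4. The HS arrays lay in a narrow range into which TR and CL reached from below, with a change of 0.37 ± 0.19 in HS vs. TR and an adjusted p of 0.36. In HS vs. CL the 2 tested probes of CD3E differed in sign, at 0.22 and -0.17.

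CXCR4, the receptor of the chemokine CXCL12, had log2 signals of 8.68, 7.98, 8.25 and 8.22 on HS1 to HS4, 8.70, 8.63, 8.48 and 8.76 on TR1 to TR4, and 8.36, 8.22, 8.49 and 8.30 on CL1 to CL4. HS1 lay with the TR arrays and the other HS arrays did not. The change was -0.36 ± 0.14 in HS vs. TR and 0.30 ± 0.14 for TR vs. CL, with adjusted p of 0.23 and 0.64.

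None of the interferon and pattern-receptor genes was DE. MX1, an interferon-induced antiviral GTPase, had log2 signals of 8.70, 9.08, 9.08 and 7.56 on HS1 to HS4, 7.95, 8.32, 9.44 and 8.95 on TR1 to TR4, and 8.93, 8.96, 7.62 and 8.35 on CL1 to CL4. Each group held high and low birds, over a span of 1.88. The change was 0.14 ± 0.43, -0.06 ± 0.43 and 0.20 ± 0.43 in the 3 comparisons, with adjusted p of 0.88, 0.96 and 0.93. A second MX1 probe changed by -0.08, -0.25 and 0.17, with adjusted p of 0.95, 0.87 and 0.96 in limma. In HS vs. CL it differed in sign from the brightest probe. TLR3 changed by 0.19 ± 0.21 and TLR7 by -0.24 ± 0.17 in HS vs. CL, and IRF1, an interferon-induced factor, by 0.19 ± 0.13, with adjusted p of 0.64, 0.44 and 0.44.

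Other genes of the interferon pathway were read from a list of 63, of which 25 had a probe and all 25 were tested. In limma 0 of 25 were DE in each comparison, with 2, 3 and 1 at an unadjusted p under 0.05, and the median log2 change was -0.04, -0.04 and 0.03. IRF7, a factor that drives interferon genes, changed by -0.40 ± 0.12 in HS vs. CL with an adjusted p of 0.099, under 1.5-fold. TLR21 changed more, by -0.63 ± 0.23 in HS vs. CL and -0.66 ± 0.23 for HS vs. TR, with adjusted p of 0.153 and 0.19 in limma. TLR21 was above background on 1 HS, 3 TR and 4 CL arrays, so it was tested through CL and the size of its change is uncertain. IFI6 and IFI27L2, both interferon-induced, were lowest of the 12 arrays on CL3, at 12.50 and 10.63, an array on which MX1 was also low. IRF7, TLR21, IFI6 and IFI27L2 were chosen after their values were seen.

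Lists of other cell types were counted beside the shares of all probes given above. Of 73 microglia and macrophage genes, 31 had a probe and 29 were tested. In limma 0 of 29 were DE in each comparison, with 4, 3 and 1 at an unadjusted p under 0.05, and 20 of 29 were lower in HS vs. CL with a median of -0.13, where 56.7% of all probes were lower. In HS vs. TR 22 of 29 were lower, with a median of -0.18, and the arrays of 2 did not overlap, against 11.3% of all probes. FCER1G, 1 of these 2, changed by -0.48 ± 0.08 in HS vs. TR with an adjusted p of 0.027 in limma, under 1.5-fold. FCER1G was chosen after its values were seen. Of 64 lymphocyte genes, 30 had a probe, 8 were above background on no array and 19 were tested. In limma 0 of 19 were DE, with 3, 2 and 0 at an unadjusted p under 0.05. In HS vs. CL 10 of 19 were lower, with a median of -0.02, and in HS vs. TR 14 of 19, with a median of -0.23. Of 10 tested erythrocyte genes 0 were DE in limma, with 0, 1 and 1 at an unadjusted p under 0.05, and their median deviation reached 0.915 on CL2. In HS vs. CL 6 of 10 erythrocyte genes were lower, with a median of -0.32, and in HS vs. TR 7 of 10, with a median of -0.15. Of 9 tested thrombocyte and heterophil genes, 1 was DE. It was LYG2, a lysozyme gene, with log2 changes of 1.53 ± 0.35 in HS vs. CL and 1.63 ± 0.35 for HS vs. TR and adjusted p of 0.052 and 0.064. LYG2 was above background on 4 HS arrays but on only 2 TR and 2 CL arrays, so it was tested through the group in which it was high and the size of its change is uncertain. Of 14 tested genes of meninges and vessels, 1 was DE, the smooth muscle gene MYH11, with log2 changes of 1.27 ± 0.42 and 1.69 ± 0.42 and adjusted p of 0.13 and 0.096. Of 13 pituitary and choroid plexus genes 8 had a probe and 4 were tested. In limma 0 of 4 were DE in each comparison, with 1, 3 and 1 at an unadjusted p under 0.05. Their log2 changes had a median of 0.58 in HS vs. CL and of 1.45 for HS vs. TR, where 4 of 4 were higher. OTX2 was above background on 4 HS, 3 TR and 2 CL arrays, and PRL on 3 HS, 2 TR and 4 CL arrays. Each was thus tested through the group in which it was high, and these medians and counts are uncertain. OTX2, a factor of choroid plexus and brain, had log2 signals of 5.32, 5.74, 8.53 and 8.07 on HS1 to HS4, and at most 6.4 on the other arrays. HS3 and HS4, the arrays low for the immune genes, were its high arrays, while OTX2 was above background on 9 of 12 arrays. OTX2 was not DE and was chosen after its values were seen. The other tested genes of the list differed. POU1F1 was also highest on HS4 and HS3, at 7.15 and 6.81. PRL was highest on HS3 at 6.75 but had 4.61 on HS4. TTR was highest on HS2 at 12.91, with 9.03 on HS3 and 9.76 on HS4. The part of these lists in the values of the immune genes was not tested.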

How the data were processed

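The authors labelled the RNA with cyanine 3, scanned the arrays and extracted them with Feature Extraction 10.7.3.1, and deposited the background-subtracted processed intensity of every spot with its marks. They also deposited a log2 table, quantile-normalized by the authors, with 43606 entries. Each entry was matched to the feature within 12 feature numbers whose normalized values were closest to its own. Of the entries, 99.95% matched at a root mean square difference under 0.1, and 65.5% matched the feature of their own number. The table served as an alternative. Matching by values made it close to the main values in advance, so it is not an independent check.

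Processed intensities were taken to log2, 472 values of outlier spots were left out, arrays were quantile-normalized over spots that were not controls, and spots of a probe were averaged. A probe counted as above background when at least 50% of its spots were so marked, and it was tested when this held on all 4 arrays of 1 or more groups. limma 3.58.1 in R 4.3.3 was fitted to the 12 arrays, with Benjamini-Hochberg adjustment over all probes, and tested on simulated data. Python 3.11.15, numpy 2.4.6, pandas 2.3.3 and matplotlib 3.10.9 served for tables and figures. Accessions were named through RefSeq genes of GRCg7b, which matched 10185 of 43603 probes. No sequence or promoter was analysed here.

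The members and lists were chosen with earlier results of these data known. A gene was given on every array if it was DE, if the arrays of 2 groups did not overlap, or if it had one of the 5 largest log2 changes of a comparison. PTPRC, B2M and MX1 were given in any case, and DE genes of the other lists were named. The alternatives changed the scaling (75th percentile), the background correction (normexp, offset 50), the filter on dim probes, the outlier spots, the FDR limit, the test (the t-test, which the methods name for PCR), the groups in the fit, the replicate block, array weights, the source (the deposited log2 table), the probe of a gene (mean of its probes) and the arrays (each left out).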

Additional observations from a re-analysis of the deposited data

Results flagged for a closer look

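Among 69 groups of 4 arrays (23 tested genes in 3 groups), 1 held an array far from the others, where chance flags about 1 in 20. For SPI1 in CL, the log2 signal of 8.94 on CL3 lay 0.873 of the group's range from the nearest array at 9.38, above Dixon's critical value for 4 arrays. Without CL3 the SPI1 change in HS vs. CL was -0.53, against -0.42 with it.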

How the results depend on the processing

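Under 26 alternatives 0 of the tested genes were DE in any comparison, and the changes followed one by one (CD74, IKZF1, CD28, SPI1, CD8A, BTK, CD3E, CXCR4, IRF8 and SYK, in the comparisons where each was named) kept their direction. PTPRC, B2M and MX1 were not followed in this way. With an array left out, the median log2 change of the genes ran from -0.31 (without HS1) to -0.13 in HS vs. CL, from -0.25 to -0.13 in HS vs. TR and from -0.10 to 0.04 in TR vs. CL, where its sign changed, as it did with array weights (0.04, with 6 of 23 genes lower). Without HS3 and HS4, chosen after seeing the data, it was -0.022 in HS vs. CL. Leaving out the arrays lowest for these genes set a smaller change in advance, and the cause was not tested. The adjusted p of IKZF1 in HS vs. CL ran from 0.037 to 0.26.

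Over all probes the alternatives gave 139 to 1908 DE probes in HS vs. CL, 157 to 1429 in HS vs. TR and 0 to 481 in TR vs. CL, with the lowest of the first without HS3 and HS4. An FDR under 0.05 gave 351, 157 and 0, the methods' t-test 413, 254 and 1, and no FDR limit 1836, 1429 and 481. Same-numbered arrays of different groups had correlations of their deviations from -0.15 to 0.37. Arrays with different numbers were not set beside them, so these values do not settle whether the numbers pair the birds. With the replicate block 0 genes of the list were DE, with 1251, 523 and 20 of all probes and medians of -0.23, -0.18 and -0.03. Weak signals limit CD4, CTLA4, ICOS, IRF4, IL7R and IL10, and 4 arrays per group limit the rest.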
